A study of Mus musculus with 12 samples.

Results

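The 10 genes followed here mark lipid-associated macrophages and were read across all libraries of the series: Gpnmb, Trem2, Tyrobp, Spp1, Cd9, Lgals3, Fabp4, Fabp5, Lpl and Plin2. They were taken by name from the gene count table, all 10 were found among its 55586 genes, and all 10 passed the count filter that kept 13474 genes. RNA sequencing was done on mouse peritoneal macrophages in culture, in 4 groups of 3 libraries. The control group was given neither agent, a group received interferon gamma (IFN y in the labels, IFN-γ here), another received Remodelin hydrobromide, and the last received Remodelin hydrobromide and then IFN-γ. Strain, sex, age, dose and duration were not given in the labels, all cells shared the same culture medium, and it is not stated whether replicate libraries stem from different animals or dishes. The p-values below thus rest on the variation among libraries alone, some or all of which may be technical.

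Lipid-associated macrophages are cells that have taken up lipid from dying cells, lipoproteins or adipose tissue, and related states are known from atherosclerotic plaque, fatty liver and, as damage-associated microglia, the brain. The state is known to depend on TREM2, a surface receptor for lipids and apolipoproteins that signals through the adaptor DAP12, the product of Tyrobp. GPNMB is a transmembrane glycoprotein of lysosomes and the cell surface, LPL splits triglyceride outside the cell, the fatty acid binding proteins FABP4 and FABP5 carry fatty acids inside it, and PLIN2 coats lipid droplets. Remodelin inhibits NAT10, the acetyltransferase that acetylates cytidine in RNA, and IFN-γ is the classical activating cytokine of macrophages.

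The libraries held 15917454 to 19418665 counts. Nat10 itself differed by a log2 fold change of -0.03 ± 0.21 (SE, n = 3) between Remodelin and control, which checks nothing on an inhibitor of the protein. The response to IFN-γ alone was small in these files, since 2 of 13474 genes were called (edgeR quasi-likelihood test, Benjamini-Hochberg adjusted p under 0.05) and the interferon target Gbp2 (0.30 ± 0.17) did not pass the test. In 3 groups, replicate 1 stood apart from both of its group mates. The chi-square of their counts per gene was 36.2 and 45.1 for control replicate 1, 56.4 and 62.2 for Remodelin replicate 1, and 76.1 and 84.3 for Remodelin + IFN-γ replicate 1, against 7.75 to 29.7 for the other pairs within groups. The libraries also differed in how log2 CPM (counts scaled to a common library total) followed the GC content of transcripts, with Spearman coefficients from -0.69 in Remodelin + IFN-γ replicate 1 to 0.55 in control replicate 3. By group the coefficients were 0.123 to 0.55 in control, -0.168 to 0.218 with IFN-γ, -0.373 to 0.264 with Remodelin and -0.69 to -0.115 with Remodelin + IFN-γ, so they move with the groups.

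The 9 macrophage markers summed to 15457 to 24892 CPM per library. Most of that sum was the lysozyme gene Lyz2, with a median of 18300 CPM over the libraries, followed by Cd68 with 1600 CPM. The other 7 were far lower, from Adgre1, which encodes F4/80, at 138 to 205 CPM to Mertk at 15.2 to 44.7 CPM and Marco at 2.67 to 6.38 CPM. The 8 markers of large resident peritoneal macrophages summed to 98.3 to 136 CPM in control. Of these, Cd5l ran from 68.3 to 114 CPM, the transcription factor gene Gata6 from 8.56 to 21.4 CPM and Icam2 from 3.96 to 6.64 CPM. Timd4 ran from 0 to 0.121 CPM, and the rest of the 8 reached at most 1.89 CPM (Garnl3). The 8 markers of small peritoneal macrophages and monocytes summed to 72.4 to 132 CPM in control. Most of that sum was Mrc1, at 56.7 to 128 CPM over the libraries. Ccr2 and Ly6c2 reached at most 1.57 and 1 CPM, and the rest of the 8 at most 4.84 CPM (Plac8). Fabp4, Lpl and Plin2 are also adipocyte genes, but the 9 adipocyte markers summed to at most 0.474 CPM in any library, 0 of 9 passed the count filter, and Lep, Cfd and Adrb3 were at 0 in all 12 libraries. The 8 endothelial markers, cells in which Fabp4 is also known, summed to 2.39 to 7.61 CPM, with Emcn and Gpihbp1 at 0 in all 12 libraries.

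All 10 genes were expressed strongly in the untreated cells. Per gene length, on the authors' FPKM scale, the control means ran in the order Lgals3, Tyrobp, Gpnmb, Fabp5, Spp1, Plin2, Trem2, Cd9, Lpl and Fabp4. Lgals3, which encodes the carbohydrate-binding protein galectin-3, stood at 7655 ± 1448 FPKM (SD, n = 3) and ranked 5 among all genes. Tyrobp followed at 4306 ± 1462 FPKM, rank 10, and Gpnmb at 3169 ± 317 FPKM, rank 14. The control ranges of those last 2 genes overlapped, and Tyrobp was above Gpnmb in 11 of 12 libraries. Fabp5 (1411 ± 263 FPKM) and Spp1, the gene of the secreted protein osteopontin (839 ± 45.7 FPKM), did not overlap in the controls, but Fabp5 was above Spp1 in 11 of the 12 libraries only. Plin2 stood at 650 ± 118 FPKM, Trem2 at 458 ± 84.8 FPKM and the tetraspanin gene Cd9 at 399 ± 14.1 FPKM. The control ranges of Trem2 and Cd9 overlapped, and Trem2 was the higher of the pair in 5 of 12 libraries, so their order is not set by these data. Lpl stood at 107 ± 21.6 FPKM and Fabp4 was lowest at 68.5 ± 8.51 FPKM, rank 812. On this scale the adaptor gene Tyrobp was listed above the receptor gene Trem2 in every library, from 2962 to 6076 FPKM against 354 to 657 FPKM. FPKM divides by the listed gene length, 667 bases for Tyrobp and 4946 for Trem2. In CPM the genes lay closer, and in Remodelin replicate 2 Tyrobp (2129 CPM) was below Trem2 (2227 CPM). By control CPM, Gpnmb ranked 2, Lgals3 7 and Tyrobp 36 among all genes, so the order depends on the scale.

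**Figure D1:**
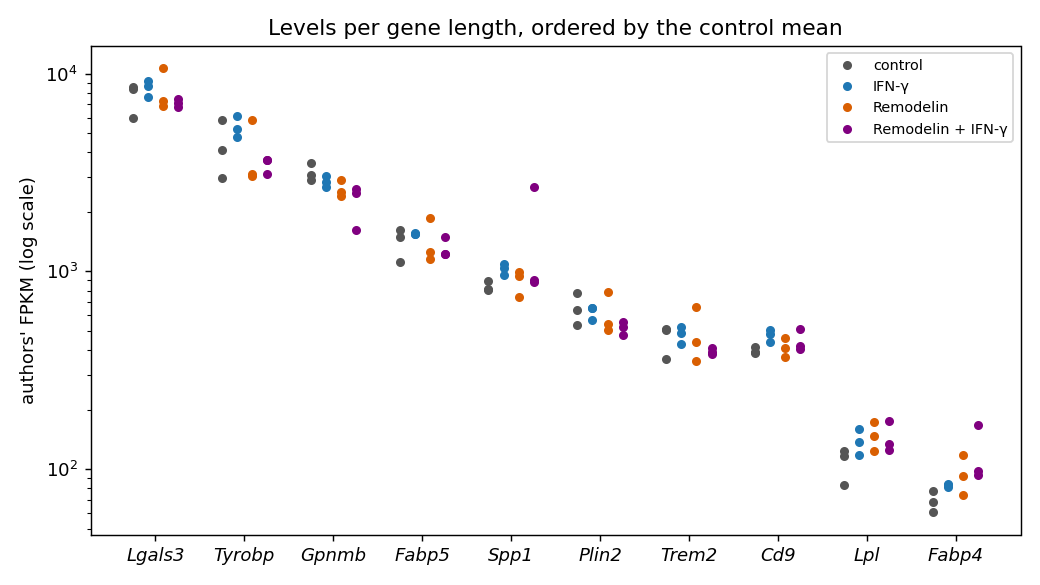
Authors' FPKM (log scale) of the 10 genes in each of the 12 libraries, with 1 point per library coloured by group and genes ordered by their control mean. Lgals3 stands at 5985 to 10670 FPKM and Fabp4 at 60.3 to 167 FPKM, and the points of 1 gene span less than the distance between the top and the bottom of the order.

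The genes lie on different chromosomes of the authors' table, Gpnmb and Cd9 on 6, Fabp4 and Fabp5 on 3, and the others on chromosomes 4 (Plin2), 5 (Spp1), 7 (Tyrobp), 8 (Lpl), 14 (Lgals3) and 17 (Trem2). The promoter windows of Gpnmb and Plin2 are shown because these are the members whose windows held one of the sequence motifs searched. Each window covers 250 bases before to 50 bases after the RefSeq start, from assembly GRCm38.p6, with the motif match in capitals. Gpnmb lies at chr6:49036268-49036567 on the plus strand and Plin2 at chr4:86670010-86670309 on the minus strand.
Gpnmb: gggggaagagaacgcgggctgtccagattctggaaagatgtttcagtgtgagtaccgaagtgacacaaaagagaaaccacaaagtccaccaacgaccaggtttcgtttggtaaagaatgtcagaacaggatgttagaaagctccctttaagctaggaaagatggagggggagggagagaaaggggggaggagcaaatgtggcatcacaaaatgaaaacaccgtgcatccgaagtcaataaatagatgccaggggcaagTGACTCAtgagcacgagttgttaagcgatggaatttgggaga
Plin2: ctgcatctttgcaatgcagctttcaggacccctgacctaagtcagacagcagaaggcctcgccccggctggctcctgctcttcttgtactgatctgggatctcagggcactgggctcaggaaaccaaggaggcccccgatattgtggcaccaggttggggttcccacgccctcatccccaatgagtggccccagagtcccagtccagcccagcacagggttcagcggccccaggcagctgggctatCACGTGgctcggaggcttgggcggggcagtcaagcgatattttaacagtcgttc
RefSeq windows were at hand for 6 of the 10 genes (Gpnmb, Plin2, Cd9, Lgals3, Trem2 and, with 2 windows, Spp1). Of the motifs searched on both strands, 4 are reported here. These are CACGTG, the E-box bound by MITF, TFEB and TFE3, the AP-1 motif TGACTCA, the ATF4 motif TGATGNAAT and the PPAR motif, AGGTCA repeated after 1 base. The Gpnmb window holds TGACTCA at bases 259 to 265, which places it just downstream of the start, and 5.2% of 32851 promoter windows hold this motif. The Plin2 window holds CACGTG at bases 247 to 252, across the start, as do 7.15% of all windows. The last of these motifs, held by 0.965% (TGATGNAAT) and 0.0396% (PPAR) of all windows, had no match in the windows of these 6 genes. A match is a description of the letters and not a measured binding site.

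Gpnmb was lower on average in every treated group than in the controls, but the differences did not pass the test. It stood at 22465, 21934 and 18224 CPM in the control libraries, at 19134, 16260 and 19011 CPM with IFN-γ, at 14046, 19444 and 17015 CPM with Remodelin, and at 10667, 18234 and 16870 CPM with Remodelin + IFN-γ. The lowest value was that of Remodelin + IFN-γ replicate 1, and the highest library of that group lay just above the lowest control. For Remodelin + IFN-γ against control the log2 fold change was -0.50 ± 0.19 (edgeR quasi-likelihood test, adjusted p = 0.102). Without Remodelin + IFN-γ replicate 1 it was -0.29. Remodelin against control gave -0.31 ± 0.19 (edgeR adjusted p = 0.503), Remodelin + IFN-γ against IFN-γ gave -0.34 ± 0.19 (edgeR adjusted p = 0.381), and IFN-γ against control gave -0.16 ± 0.19 (edgeR adjusted p = 0.941). DESeq2 on the same counts gave -0.50 for Remodelin + IFN-γ against control with an adjusted p of 0.0413, and the authors' deposited table lists -0.4516 with an adjusted p of 0.0978.

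**Figure D2:**
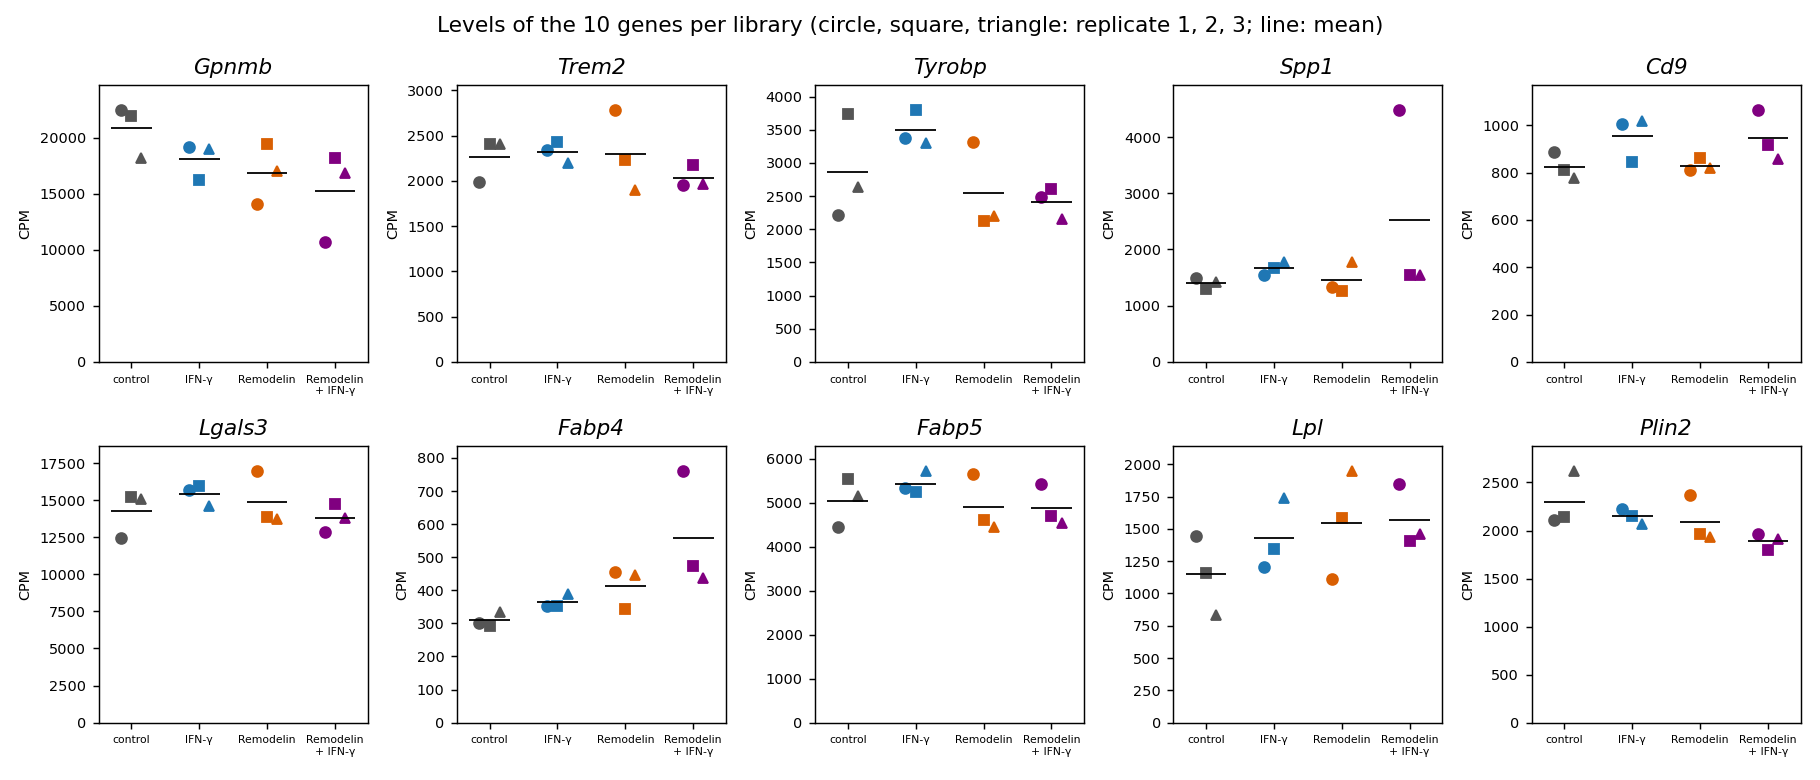
CPM of each of the 10 genes in the 4 groups, with circle, square and triangle for replicates 1, 2 and 3 and a line at the group mean (n = 3). In Remodelin + IFN-γ, replicate 1 is the lowest library of the series for Gpnmb (10667 CPM) and the highest for Spp1 (4479 CPM) and Fabp4 (761 CPM).

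Fabp4 was the 1 gene of the 10 that passed the test in any comparison. It rose 1.75-fold with Remodelin + IFN-γ against control, a log2 fold change of 0.80 ± 0.21 (edgeR adjusted p = 0.04). Its levels were 302, 292 and 335 CPM in control, 353, 352 and 388 CPM with IFN-γ, 454, 343 and 446 CPM with Remodelin, and 761, 472 and 437 CPM with Remodelin + IFN-γ. In CPM all 9 treated libraries thus lay above all 3 control libraries, while in FPKM Remodelin replicate 2 (74.1) lay below control replicate 3 (77.3). The comparisons of 1 agent at a time gave 0.43 ± 0.20 for Remodelin against control (edgeR adjusted p = 0.394), 0.53 ± 0.20 for Remodelin + IFN-γ against IFN-γ (edgeR adjusted p = 0.227), 0.28 ± 0.20 for IFN-γ against control (edgeR adjusted p = 0.889) and 0.37 ± 0.20 for Remodelin + IFN-γ against Remodelin (edgeR adjusted p = 0.669). The Remodelin effect averaged over both levels of IFN-γ was 0.48 ± 0.14 (edgeR adjusted p = 0.0539), and the interaction was 0.10 ± 0.29 (edgeR adjusted p = 1). The authors' deposited table lists 0.6954 for Fabp4 in Remodelin + IFN-γ against control, with an adjusted p of 0.0196.

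The Fabp4 call did not hold in several alternatives. Without Remodelin + IFN-γ replicate 1 the log2 fold change was 0.51 (edgeR adjusted p = 0.197), and without control replicate 1, 2 or 3 it was 0.73, 0.80 and 0.89 with adjusted p of 0.053, 0.153 and 0.089 in edgeR. Without any 1 of the IFN-γ libraries, which enter through the shared fit, it was 0.81 with edgeR adjusted p of 0.0599 to 0.0658. The GC content of Fabp4 was taken from its longest annotated transcript, 4231 bases, which need not be the main one expressed. At 42.7% it was the lowest of the 10 genes, lower than all but 14.2% of the tested genes with a value. With each library's trend with GC content removed, the log2 fold change was 0.33 (edgeR adjusted p = 0.423).

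Spp1 was carried by 1 library. It stood at 1484, 1291 and 1416 CPM in control, 1537, 1677 and 1771 CPM with IFN-γ, 1330, 1261 and 1774 CPM with Remodelin, and 4479, 1552 and 1554 CPM with Remodelin + IFN-γ. The value of 4479 CPM belongs to Remodelin + IFN-γ replicate 1, and the other 2 libraries of that group lay within the range of the IFN-γ group. Remodelin + IFN-γ against control gave a log2 fold change of 0.83 ± 0.30 (edgeR adjusted p = 0.0915) with this library and 0.12 without it. With DESeq2 the same difference of 0.83 had an adjusted p of 0.0474. IFN-γ against control gave 0.30 ± 0.30 (edgeR adjusted p = 0.925) although the 3 IFN-γ libraries all lay above the 3 controls. The longest annotated transcript of Spp1 has a GC content of 43.3%, and with the GC trend removed the difference between Remodelin + IFN-γ and control was 0.32.

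Trem2 varied little between group means. It stood at 1989, 2409 and 2406 CPM in control, 2336, 2431 and 2194 CPM with IFN-γ, 2782, 2227 and 1894 CPM with Remodelin, and 1951, 2173 and 1970 CPM with Remodelin + IFN-γ. The lowest library (1894 CPM) and the highest (2782 CPM) were both in the Remodelin group. Remodelin against control gave a log2 fold change of 0.04 ± 0.20 (edgeR adjusted p = 0.943) and IFN-γ against control gave 0.07 ± 0.20 (edgeR adjusted p = 0.976). The sign of the Remodelin difference rested on replicate 1: it was -0.10 without control replicate 1, -0.22 without Remodelin replicate 1 and -0.36 without both, and edgeR called it in none of these 3 fits. Remodelin + IFN-γ lay below IFN-γ without overlap, at -0.29 ± 0.20 (edgeR adjusted p = 0.468).

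Tyrobp showed a wider spread than its receptor gene and its lowest mean with Remodelin + IFN-γ. It stood at 2208, 3741 and 2634 CPM in control, 3383, 3797 and 3294 CPM with IFN-γ, 3312, 2129 and 2197 CPM with Remodelin, and 2487, 2606 and 2148 CPM with Remodelin + IFN-γ. Every Remodelin + IFN-γ library was below every IFN-γ library, and the other groups spread widely. Remodelin + IFN-γ against IFN-γ gave -0.63 ± 0.24, 1.55-fold lower, with an edgeR adjusted p of 0.228. The authors' deposited table lists -0.5693 for this comparison with an adjusted p of 0.0026, and the fit of those 2 groups alone gave -0.63 with an edgeR adjusted p of 0.066. Remodelin against control gave -0.15 ± 0.24 with all libraries (edgeR adjusted p = 0.799) and -0.70 without control replicate 1 and Remodelin replicate 1 (edgeR adjusted p = 0.0237). Hcst, which encodes the related adaptor DAP10 and neighbours Tyrobp on the opposite strand, did not follow it, at 43.6 to 57.4 CPM in control, 63.4 to 73.5 CPM with IFN-γ, 60.9 to 82.5 CPM with Remodelin and 62.9 to 71.7 CPM with Remodelin + IFN-γ. Hcst was singled out for its position. Whether the counting used strand is not stated, so reads of neighbours that overlap could not be told apart.

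Lgals3 and Cd9 differed little between groups. Lgals3 stood at 12426 to 15234 CPM in control, 14590 to 15953 CPM with IFN-γ, 13754 to 16972 CPM with Remodelin and 12846 to 14754 CPM with Remodelin + IFN-γ, and its log2 fold changes in the 5 comparisons between groups ran from -0.26 to 0.15. Cd9 stood at 776 to 886 CPM in control, 844 to 1019 CPM with IFN-γ, 809 to 861 CPM with Remodelin and 857 to 1064 CPM with Remodelin + IFN-γ. Its largest difference was 0.26 ± 0.14 for IFN-γ against control (edgeR adjusted p = 0.889). In CPM the groups overlapped in every comparison of both genes, while in FPKM Lgals3 was lower without overlap in Remodelin + IFN-γ against IFN-γ and Cd9 higher in IFN-γ against control.

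Among the lipid-handling genes other than Fabp4, Lpl had its lowest library in the control group and Plin2 its lowest with Remodelin + IFN-γ. Lpl stood at 1447, 1159 and 837 CPM in control, 1205, 1348 and 1736 CPM with IFN-γ, 1109, 1585 and 1949 CPM with Remodelin, and 1846, 1405 and 1459 CPM with Remodelin + IFN-γ. The Remodelin group spanned most of the range of the series. Remodelin against control gave 0.43 ± 0.20 (edgeR adjusted p = 0.379), and without control replicate 1 and Remodelin replicate 1 it gave 0.68 (edgeR adjusted p = 0.0411). That fit, without the 2 libraries, called 1853 genes over the whole table, where the fit with them called 114. Plin2 stood at 2111, 2143 and 2621 CPM in control and at 1968, 1802 and 1912 CPM with Remodelin + IFN-γ, without overlap, a log2 fold change of -0.33 ± 0.18 (edgeR adjusted p = 0.222). With a single agent Plin2 ran from 2071 to 2221 CPM (IFN-γ) and 1933 to 2372 CPM (Remodelin). Fabp5 stood at 4446 to 5533 CPM in control, 5238 to 5726 CPM with IFN-γ, 4445 to 5656 CPM with Remodelin and 4533 to 5420 CPM with Remodelin + IFN-γ. Its log2 fold changes ran from -0.24 to 0.14. Processed pseudogenes of Fabp5 are known in the mouse, and how reads that match several genes were counted is not given, so its level is less certain than its neighbours'.

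Over the 10 genes, the number called was near the background in each comparison. In Remodelin + IFN-γ against control 1 of 10 was called, where 4.49% of all tested genes were. In Remodelin against control 0 of 10 were called, against 0.846% of all genes, and in Remodelin + IFN-γ against IFN-γ 0 of 10, against 0.364%. For IFN-γ against control 0 of 10 were called beside a background of 0.0148%, and for Remodelin + IFN-γ against Remodelin 0 of 10 beside 0%. The average Remodelin effect called 0 of 10 beside 7.04%, the average IFN-γ effect 0 of 10 beside 0.00742%, and the interaction 0 of 10 beside 0.00742%. Counts before adjustment are read against their own background. The edgeR p before adjustment was under 0.05 for 2 of the 10 genes in Remodelin against control (12.7% of all tested genes), 2 in Remodelin + IFN-γ against IFN-γ (16.2%), 0 in IFN-γ against control (5.37%) and 1 in Remodelin + IFN-γ against Remodelin (7.74%). It was so for 4 in Remodelin + IFN-γ against control (29.8%), 3 in the average Remodelin effect (26.1%), 2 in the average IFN-γ effect (12.9%) and 0 in the interaction (2.3%). limma-voom called 1 of 10 (Fabp4 in Remodelin + IFN-γ against control) over all of these comparisons, and DESeq2 called 3 of 10 in Remodelin + IFN-γ against control (Gpnmb, Spp1 and Fabp4), where it called 13.3% of all genes, and 1 of 10 in the average Remodelin effect (Fabp4), where it called 10.2%.

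The median log2 fold change of the 10 genes was 0.03 for Remodelin against control (0.01 over all tested genes), -0.25 for Remodelin + IFN-γ against IFN-γ (0.03 over all), 0.21 for IFN-γ against control (0.00 over all), -0.11 for Remodelin + IFN-γ against Remodelin (-0.01 over all) and -0.10 for Remodelin + IFN-γ against control (0.01 over all). The comparisons share libraries and are not independent of each other. In CPM, groups did not overlap for 1 of 10 genes in Remodelin against control (17.5% of all genes), 4 in Remodelin + IFN-γ against IFN-γ (27.5%), 2 in IFN-γ against control (17.2%), 0 in Remodelin + IFN-γ against Remodelin (9.25%) and 3 in Remodelin + IFN-γ against control (29.7%). The scale changed the count in 3 comparisons and the genes in another. On the authors' FPKM scale, 2 of 10 genes did not overlap in Remodelin against control, where 15.8% of all genes did not, 7 of 10 in Remodelin + IFN-γ against IFN-γ, where 27.8% did not, 3 of 10 in IFN-γ against control, where 17.9% did not, and 0 of 10 in Remodelin + IFN-γ against Remodelin, where 9.2% did not. Of those 7 genes, Gpnmb, Trem2, Tyrobp, Lgals3, Fabp5 and Plin2 were lower with Remodelin + IFN-γ and Fabp4 was higher. In Remodelin + IFN-γ against control the count was 3 on both scales (31.6% of all genes in FPKM), for Spp1, Fabp4 and Plin2 in CPM and for Gpnmb, Fabp4 and Lpl in FPKM.

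**Figure D3:**
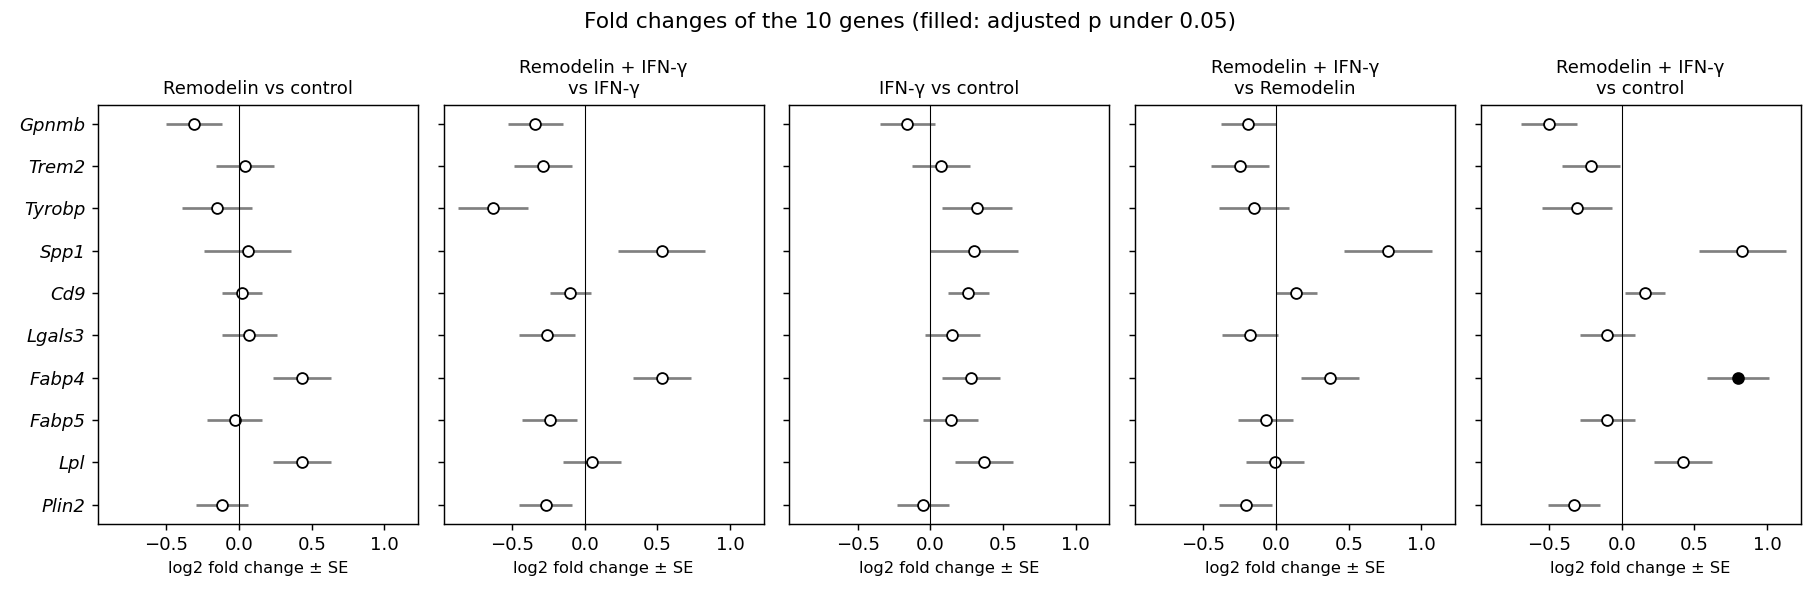
Log2 fold changes with SE (edgeR, n = 3 libraries per group) of the 10 genes in the 5 comparisons between groups, filled where the adjusted p was under 0.05. Fabp4 in Remodelin + IFN-γ against control (0.80 ± 0.21) is the 1 filled point of the plot.

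The 10 genes did not vary as 1 block across the libraries. Trem2, Tyrobp, Lgals3, Fabp5 and Plin2 varied together: over the 12 libraries the Pearson r of log2 CPM was 0.69 to 0.96 in their 10 pairs (median 0.84), and Spearman's rho was 0.71 to 0.92. With the group means taken out, r was 0.69 to 0.97, so the shared variation lay among libraries of the same group. The highest r, 0.96, was that of Trem2 and Lgals3. Without the 2 libraries farthest from the median of the first gene of a pair, r was 0.70 to 0.95. With the trends of each library with GC content and transcript length removed, r was -0.03 to 0.95 (median 0.54). Libraries share depth, composition and these trends with all their genes, and pairs were chosen after their values were seen, so r is given as a description with no test.

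Over all 12 libraries Gpnmb varied apart from this block and opposite to Fabp4. Its r with Trem2 was 0.24 and with Lgals3 0.18. Without the 3 libraries that stood apart, its r was 0.72 with Trem2, 0.63 with Tyrobp, 0.59 with Lgals3, 0.73 with Fabp5 and 0.54 with Plin2, so the separation from the block rests on those libraries. With Fabp4, r was -0.94 (rho -0.94), -0.88 with the group means taken out, -0.85 without Remodelin + IFN-γ replicate 1 and -0.59 with the GC trend removed. With Spp1, r was -0.84 (rho -0.62) and -0.27 without the 2 libraries farthest from the median of Gpnmb, so that relation rests on those libraries. Of 8845 genes with an established symbol and a mean of at least 5 CPM, the 3 most like Gpnmb over the 12 libraries were Clcn7, a lysosomal chloride transporter gene, Plbd2, which encodes a lysosomal phospholipase-like protein, and Ttyh2, each with r = 0.99. Those most like Trem2 were the mitochondrial ribosome genes Mrps24 (r = 0.99) and Mrpl2 (r = 0.97) and the cystatin C gene Cst3 (r = 0.97).

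Genes of the machinery around the TREM2 receptor that edgeR called were all lower. Of 18 genes of TREM2 and DAP12 signalling, all tested, 0 rose and 2 fell in the average Remodelin effect, in which 2.24% of all tested genes rose and 4.8% fell, and edgeR called 0 in the other comparisons. There the edgeR p before adjustment was under 0.05 for 0 to 8 of the genes, DESeq2 called 0 to 3 and limma-voom 0. The highest of these counts, 8 and 3 of 18, were in Remodelin + IFN-γ against control, beside 29.8% and 13.3% of all genes. In the average Remodelin effect 7 of 18 had an edgeR p before adjustment under 0.05, beside 26.1%. Ptpn6, which encodes the inhibitory phosphatase SHP-1, stood at 200 ± 5.45 CPM in control and 151 ± 10.6 CPM with Remodelin (SD, n = 3), an average log2 fold change of -0.46 ± 0.10 (edgeR adjusted p = 0.0116). The adaptor gene Blnk fell by 0.34 on the log2 scale (edgeR adjusted p = 0.0416). The median of the list was -0.17, against 0.03 over all genes. Of 14 genes of other receptors that pair with DAP12, 10 were tested and edgeR, DESeq2 and limma-voom called 0 in any of the comparisons, with the edgeR p before adjustment under 0.05 for 0 to 2 of them. Of 14 MiT/TFE transcription factors and their osteoclast-type targets, 12 were tested. In the average Remodelin effect edgeR called 0 of these higher and 1 lower, beside 2.24% and 4.8% of all tested genes. Acp5, which encodes tartrate-resistant acid phosphatase, fell by 0.58 in the average Remodelin effect (edgeR adjusted p = 0.00764), from 144 ± 4.02 CPM in control to 99 ± 12.9 CPM with Remodelin and 97.1 ± 11.1 CPM with Remodelin + IFN-γ. Acp5 was also the 1 call of the list in Remodelin + IFN-γ against control (-0.62 ± 0.16, edgeR adjusted p = 0.0425), where 4.49% of all genes were called. That call was made in 4 of the 12 fits that left out 1 library. The factor gene Mitf stood at 18.3 ± 5.9 CPM in control and 22 ± 7.78 CPM with Remodelin and was not called. Of the 12 fits that each left out 1 library, the average effect was called in 12 for Acp5, 11 for Ptpn6 and 3 for Blnk.

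Of 13 receptors and relatives of osteopontin, galectin-3 and GPNMB, 0 rose and 2, Sdc4 and Itgb5, fell in the average Remodelin effect (2.24% and 4.8% of all tested genes). Sdc4 encodes syndecan-4, a heparan sulphate proteoglycan bound by GPNMB, and fell by 0.65 for Remodelin against control (edgeR adjusted p = 0.0337), from 53.7 ± 4.21 to 34.1 ± 3.88 CPM. Itgb5 encodes an integrin subunit of an osteopontin receptor and fell by 0.56 on average (edgeR adjusted p = 0.0143). Lgals8, the gene of galectin-8, rose by 0.80 with Remodelin + IFN-γ against control (edgeR adjusted p = 0.0367). Of 15 tetraspanins and partners, 14 were tested, and Cd82 (-0.47, edgeR adjusted p = 0.0125) and Tspan4 (-0.62, edgeR adjusted p = 0.0167) fell in the average Remodelin effect, 2 of 14 beside 4.8% of all genes, while Cd9 gave -0.04 ± 0.10. With 1 library left out in turn, the average effect was called in 12 of 12 fits for Sdc4 and Cd82, 10 for Itgb5 and 8 for Tspan4, Sdc4 in Remodelin against control in 2, and Lgals8 in 6.

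Larger changes in lipid genes lay outside the 10. G0s2, which encodes an inhibitor of the lipid droplet lipase ATGL, rose in both Remodelin comparisons, from 0.781 ± 0.188 CPM in control to 2.55 ± 0.351 CPM with Remodelin and from 0.629 ± 0.21 CPM with IFN-γ to 2.46 ± 0.423 CPM with Remodelin + IFN-γ. The log2 fold changes were 1.73 ± 0.33 (edgeR adjusted p = 0.0163) and 1.88 ± 0.34 (edgeR adjusted p = 0.0194). Soat2, which encodes a cholesterol-esterifying enzyme, rose by 1.55 ± 0.32 for Remodelin + IFN-γ against IFN-γ (edgeR adjusted p = 0.042), a call made in 4 of the 12 fits that left out 1 library and not with limma-voom, the replicate block or those 2 groups alone, and by 1.32 ± 0.22 on average (edgeR adjusted p = 0.00234). Both genes were low, at no more than 5.73 CPM in any library. Plin3, a droplet coat relative of Plin2, fell by 0.40 on average (edgeR adjusted p = 0.0459). In all, 2 of the 19 tested genes of the droplet list rose in the average Remodelin effect, 1 fell and the others did not pass the test, beside 2.24% and 4.8% of all tested genes. With 1 library left out in turn, the average effects on G0s2 and Soat2 were called in 12 of 12 fits and that on Plin3 in 3, and the 2 Remodelin comparisons called G0s2 in 8 fits each.

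Genes of lipid uptake moved in opposite directions. In the average Remodelin effect, 1 of 12 tested genes of this list rose and 3 fell, beside 2.24% and 4.8% of all tested genes. Vldlr, the gene of a lipoprotein receptor, rose by 1.01 ± 0.26 (edgeR adjusted p = 0.0288) from 1.11 ± 0.631 CPM in control to 2 ± 0.787 CPM with Remodelin, near the low end of detection. Scarb1, the gene of a high-density lipoprotein receptor, fell by 0.39 (edgeR adjusted p = 0.022) and the fatty acid transporter gene Slc27a4 fell by 0.43 (edgeR adjusted p = 0.0449). Cd36, a scavenger receptor and fatty acid transporter gene, was called in Remodelin + IFN-γ against control, where it rose by 1.19 ± 0.29 (edgeR adjusted p = 0.0349). Its values there were 2923, 1158 and 1113 CPM against 833, 801 and 606 CPM in control. The highest belonged to replicate 1, and over the libraries left out 1 at a time the log2 fold change ran from 0.57 to 1.43 and was called in 6 of 12 fits. The average effect was called in 7 of those fits for Scarb1, 4 for Vldlr and 3 for Slc27a4.

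Of 12 relatives of FABP4 and FABP5, 4 were tested. The brain-type Fabp7 (0.94 ± 0.27, edgeR adjusted p = 0.0417) and the retinoic acid binding Crabp2 (1.31 ± 0.35, edgeR adjusted p = 0.0347) rose in the average Remodelin effect, in which 2 of the 4 rose and 1 fell, beside 2.24% and 4.8% of all tested genes. Crabp2 was near the low end of detection, at 0.459 ± 0.195 CPM in control and 1.3 ± 0.523 CPM with Remodelin (SD, n = 3). Fabp7 was highest in Remodelin + IFN-γ replicate 1, at 20.5 CPM beside 7.33 and 6.39 CPM in its group mates. Of 17 PPAR factors, partners and co-regulated genes, 14 were tested and edgeR, DESeq2 and limma-voom called 0 in any comparison, with the edgeR p before adjustment under 0.05 for 0 to 4 of them. Pparg, whose product drives Fabp4, Cd36 and Plin2 in macrophages, stood at 45.1 ± 1.87 CPM in control, 52.6 ± 5.49 CPM with IFN-γ and 48.1 ± 8.52 CPM with Remodelin. With Remodelin + IFN-γ it stood at 60.2 ± 13.1 CPM, from libraries at 75, 49.9 and 55.8 CPM, of which replicate 1 was the highest. A part of Pparg in the levels of those genes was not tested. Of 24 other genes of lipid-associated and damage-associated macrophages, 23 were tested. Timp2, a metalloproteinase inhibitor gene, fell by 0.36 in the average Remodelin effect (edgeR adjusted p = 0.0285). It was the 1 call among the 23 there, beside 4.8% of all tested genes that fell and 2.24% that rose. The macrophage elastase gene Mmp12 rose by 0.87 with Remodelin + IFN-γ against control (edgeR adjusted p = 0.0445), with values of 8249, 4441 and 4008 CPM. There edgeR called 2 of the 23, beside 4.49% of all. DESeq2 called 5 in the average Remodelin effect (10.2% of all genes) and 7 in Remodelin + IFN-γ against control (13.3%). The edgeR p before adjustment was under 0.05 for 10 of the 23 in each (26.1% and 29.8% of all genes). Lgals8, Cd36 and Mmp12 fall outside the naming rule, as do Mitf and Pparg, and were chosen after their values were seen. With 1 library left out in turn, the average effect was called in 6 of 12 fits for Crabp2, 5 for Fabp7 and 3 for Timp2, and Mmp12 was called in 4. With the GC trend removed, Lgals8, Cd36 and Mmp12 were not called in Remodelin + IFN-γ against control. Mmp12 was not called with limma-voom either, and its log2 fold change ran from 0.28 to 1.06 over the alternatives.

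**Figure D4:**
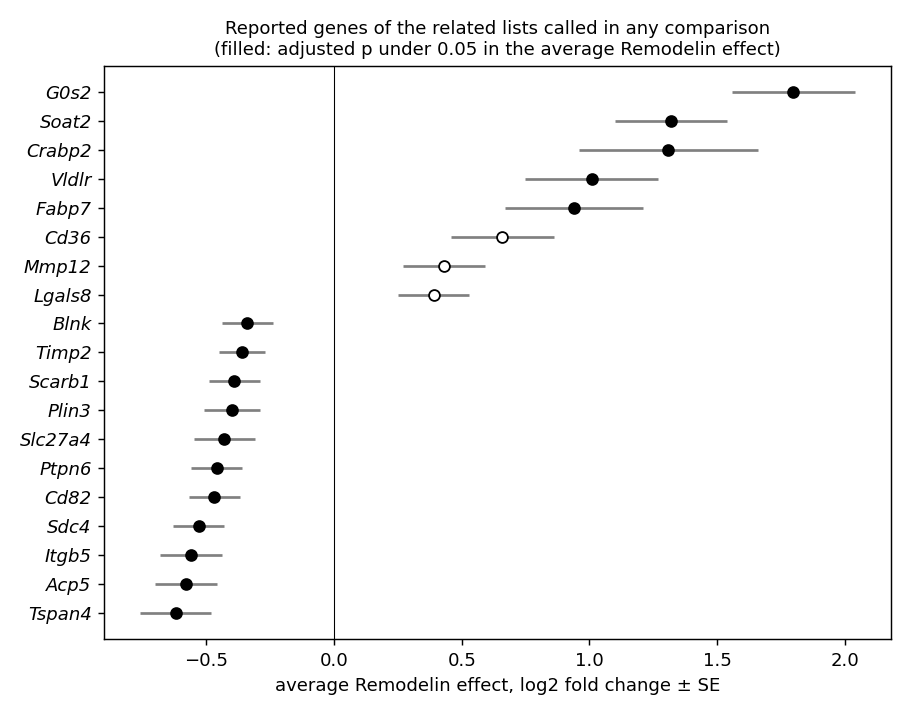
Average Remodelin effect (log2 fold change ± SE, edgeR, 12 libraries) of genes of the related lists that were called in any comparison and are reported here, filled where this effect itself had an adjusted p under 0.05. G0s2 stands highest and Tspan4 (-0.62 ± 0.14) lowest, and Cd36, Mmp12 and Lgals8 are open because they were called in Remodelin + IFN-γ against control and not here.

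Some markers of other peritoneal cells moved with Remodelin. The 14 mesothelial and stromal markers summed to 529 to 901 CPM in control, 442 to 564 CPM with IFN-γ, 319 to 634 CPM with Remodelin and 417 to 587 CPM with Remodelin + IFN-γ, and none was at 0 in all libraries of a group. Upk3b, Mgp, Col3a1 and Upk1b, 4 of the 14, fell in Remodelin against control, with a log2 fold change of -2.03 ± 0.19 for Upk3b (edgeR adjusted p = 8.22e-05), where 0.653% of all tested genes fell. In Remodelin + IFN-γ against IFN-γ 2 of the 14, Upk3b and Mgp, fell, where 0.223% of all did. The median of the list was -0.37 in the first of these comparisons and 0.01 in the second. The 9 neutrophil markers summed to 47.8 to 55.9 CPM in control, 48.8 to 52 CPM with IFN-γ, 30.3 to 32.9 CPM with Remodelin and 34.3 to 36.4 CPM with Remodelin + IFN-γ. That sum rests on a few of the 9 genes, such as S100a8 at 13.8 to 25 CPM over the libraries. Ly6g, Camp, Elane and S100a9 reached at most 0.0622, 0.218, 0.241 and 0.746 CPM, so the sum does not show a change in neutrophils. In bulk libraries, fewer cells of a type and less RNA per cell cannot be told apart. Sdc4, Itgb5 and Timp2 are also expressed by stromal cells, and the part of these cells in their values was not tested.

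**Figure D5:**
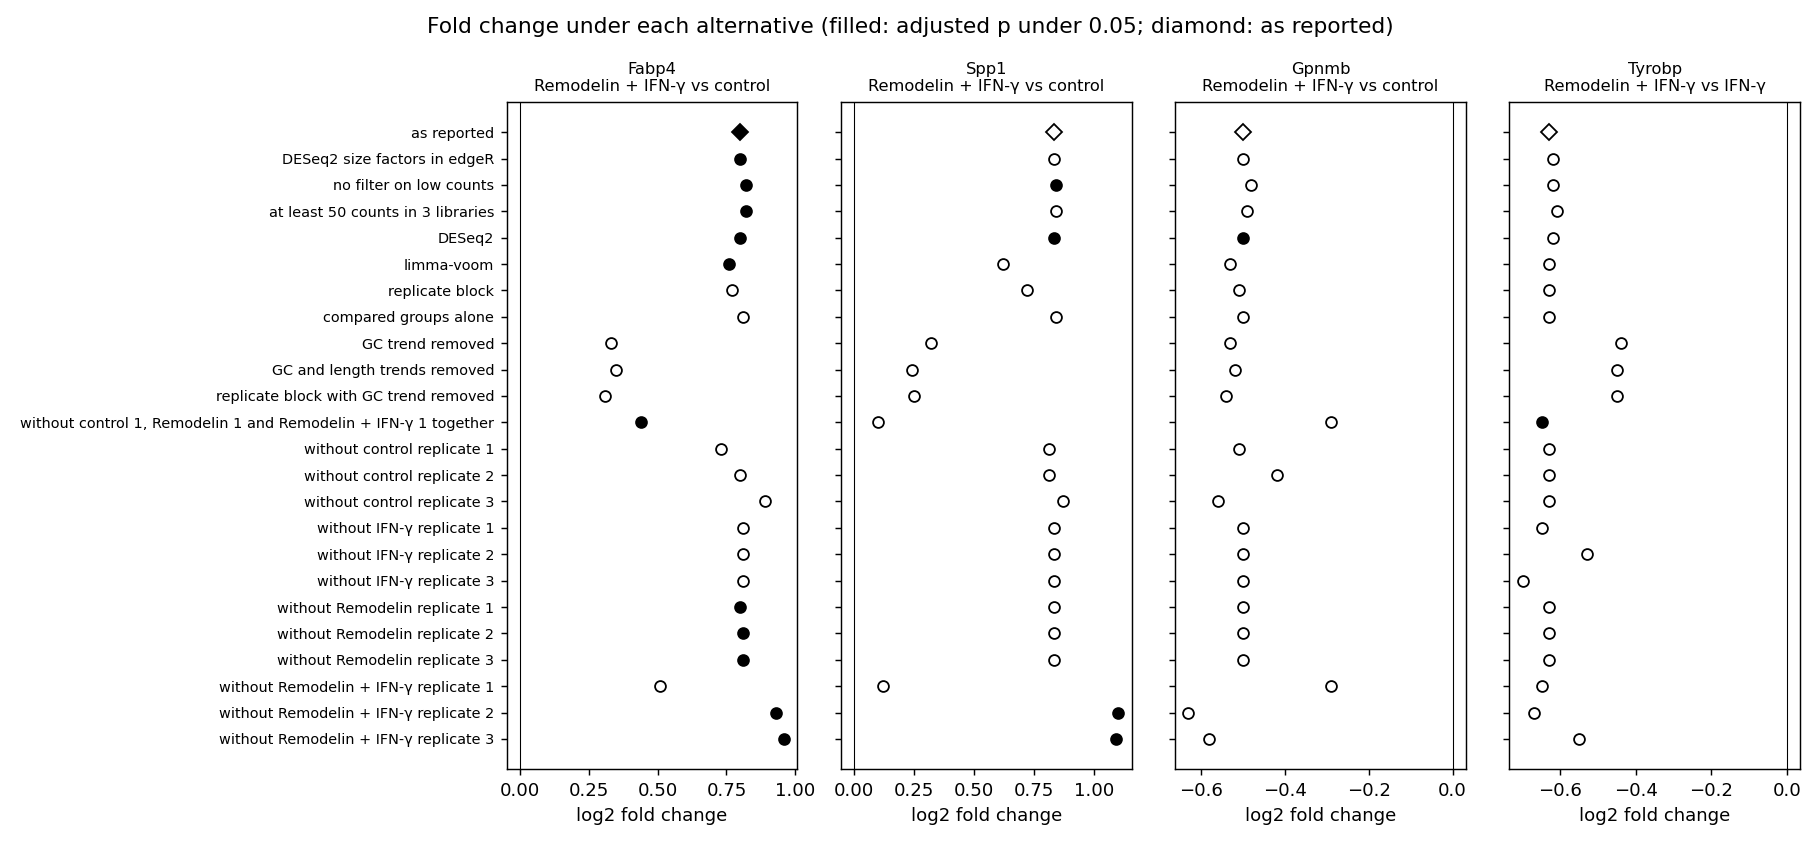
Log2 fold changes of Fabp4, Spp1 and Gpnmb (Remodelin + IFN-γ against control) and Tyrobp (Remodelin + IFN-γ against IFN-γ) in the reported fit (diamond) and under each alternative (circles), filled where the adjusted p was under 0.05. Fabp4 spans 0.31 to 0.96, Spp1 0.10 to 1.10, Gpnmb -0.63 to -0.29 and Tyrobp -0.70 to -0.44, with no change of sign.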

How the data were processed

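Gene expression was measured by RNA sequencing of 12 libraries, grouped and numbered by their titles. The submitters' processing notes list, without roles, the tools CASAVA 1.8, HISAT2 2.0.5, featureCounts 1.5.0-p3. For build, annotation and strand setting the sources used here name nothing, so no gene coordinates of the authors' table are printed. The deposited table holds raw counts per gene and FPKM values for each library, per the file headers. The authors' deposited comparisons list log2 fold changes with p-values, which were read for the 10 genes only.

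Counts were tested in edgeR 4.0.16 (R 4.3.3) by the quasi-likelihood test with TMM normalisation and filterByExpr, in 1 fit over 12 libraries with a mean per group. P-values were adjusted by Benjamini-Hochberg over 13474 genes and called under 0.05, and the common coefficient of variation was 18.6%. The test was also run on simulated counts without outlying libraries or GC trends, so that run does not cover these features of the data. CPM is the count scaled to the library total without TMM factors, log2 CPM has a prior count of 2, and 3 counts, taken as the floor, are worth 0.154 to 0.188 CPM, which covers counting error only. FPKM was described and not tested. GC content and length came from the longest GENCODE transcript of each gene and covered 99% of tested genes. Alternatives were DESeq2 size factors in edgeR, no count filter, at least 50 counts in 3 libraries, DESeq2 1.42.0, limma-voom (limma 3.58.1), a replicate block, the compared groups alone, removal of GC and length trends and leaving out libraries. Leaving out control 1, Remodelin 1 and Remodelin + IFN-γ 1 together was chosen after seeing the data.

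The 10 genes and the 21 lists of related and marker genes were chosen with earlier results of these data known. All 10 genes are named whatever their values. From each other list the text names genes called in a comparison of 1 agent or in an average effect, at most 4 per list and comparison by smallest p, and for Gpnmb and Trem2 the 3 genes with the highest r. Some genes that this rule names are not reported here. Replicate numbers were not used as pairs in the reported fit. Deviations of same-numbered libraries from their group means correlated with r of -0.547 to 0.261 in 18 pairs, against -0.318 to 0.415 in 36 pairs with different numbers. Such r can reflect trends that a library shares across its genes, so they do not settle whether equal numbers mark a batch.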

Additional observations from a re-analysis of the deposited data

How the results depend on the processing

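Of the 10 genes, 1 was called in Remodelin + IFN-γ against control. It was 0 with the replicate block, 0 with the compared groups alone, 0 with the GC trend removed, 0 with GC and length trends removed, 0 with block and GC trend removal combined, and it was 2 without the count filter (Spp1 and Fabp4), 3 with DESeq2, and 0 to 2 with 1 library left out. Over all genes tested in each fit, that comparison called 605 as reported, 161 with the replicate block and 86 with the compared groups alone. It called 552 with GC and length trends removed, 30 with block and GC trend removal combined, and 16 to 1443 with 1 library left out. The labels do not say whether equal replicate numbers mark a shared batch, so the block is given as a setting, and such a batch was not tested. In the average Remodelin effect, where 0 were called, the count was 1 without the count filter (Fabp4), 1 with DESeq2 (Fabp4), 1 with GC and length trends removed (Gpnmb) and 0 to 1 with 1 library left out: Tyrobp was called without Remodelin 1 (-0.56, edgeR adjusted p = 0.0203), and Fabp4 without Remodelin 2, Remodelin + IFN-γ 2 or Remodelin + IFN-γ 3. Over all genes tested in each fit, the average Remodelin effect called 949 as reported, 1406 without the count filter, 1378 with DESeq2 and 1519 with GC and length trends removed. It called 1960 without Remodelin 1, 561 without Remodelin 2, 1065 without Remodelin + IFN-γ 2 and 625 without Remodelin + IFN-γ 3. In the average IFN-γ effect, 1 of the 10 genes was called without the count filter (Spp1). Without control 1 and Remodelin 1, Remodelin against control called 2 (Tyrobp and Lpl), beside 1853 over all tested genes.

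Without the 3 libraries that stood apart, the counts were 4 for Remodelin against control (Tyrobp, Fabp5 and Plin2 lower, Lpl higher), 1 for Remodelin + IFN-γ against IFN-γ (Tyrobp, -0.65, edgeR adjusted p = 0.00406), 1 for IFN-γ against control (Lpl), 4 for Remodelin + IFN-γ against control (Tyrobp and Plin2 lower, Lpl and Fabp4 higher) and 6 for the average Remodelin effect (Tyrobp, Trem2, Fabp5 and Plin2 lower, Lpl and Fabp4 higher). There the average effect on Tyrobp was -0.66 (edgeR adjusted p = 1.72e-05) and on Trem2 -0.30 (edgeR adjusted p = 0.0116). Those counts stand beside a larger background, since over all tested genes the same fits called 4126, 1318, 418, 3354 and 4946 in the same order. In FPKM in place of CPM, 2 of 10 genes in place of 1 did not overlap in Remodelin against control, 7 in place of 4 in Remodelin + IFN-γ against IFN-γ and 3 in place of 2 in IFN-γ against control. Over all tested genes, DESeq2 in place of edgeR called 269 in place of 114 for Remodelin against control, 264 in place of 49 for Remodelin + IFN-γ against IFN-γ and 1797 in place of 605 for Remodelin + IFN-γ against control, which had 1565 calls without the count filter and 157 with the GC trend removed. No value called in the reported fit changed sign in any alternative run. In Remodelin against control, Tyrobp, Fabp5 and Plin2 were called lower only with libraries left out together. Over the alternatives their log2 fold changes ran from -0.70 to 0.13, -0.37 to 0.09 and -0.43 to 0.02, so their sign was not constant. The cause of these differences was not tested. Interaction and Remodelin + IFN-γ against Remodelin called 0 of 10 in every alternative run. Depth limits none of the 10 genes, whose lowest value was 292 CPM. Among related genes, the average effects on G0s2, Soat2, Acp5, Sdc4 and Cd82 were called in every alternative run, and those on Slc27a4, Plin3 and Timp2 in 9 of 22.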
